A study of Mus musculus with 20 samples.

Results

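A pair of knockout lines made against the same gene were compared: clone 1 and clone 2 of the SIMS mouse salivary gland cell line, both derived with CRISPR/Cas9 directed at Zcchc8. The comparison took the 8 libraries labelled as these clones, 4 of each, of 20 libraries in the series. The other 12 came, 4 of each by the labels, from Zcchc8 KO clone 3, from cells with a Btbd7 KO that served as the negative control, and from unedited wild-type SIMS cells. Wild-type replicate 1 was not in the gene and PROMPT tables used here, so wild type had 3 libraries. All cells grew in DMEM with 10% FBS, and total RNA was sequenced after a stranded library preparation. Each KO line was 1 clone, so a difference between the lines is a difference between 2 clones. The edited position and the alleles of each clone were not given in the sources used here. The labels did not say that the replicates of a clone were separate cultures, so a p-value measured only the spread between these libraries, which may be technical.

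NEXT, short for nuclear exosome targeting, is a complex of Zcchc8, its scaffold, with the RNA-binding protein Rbm7 and the helicase Mtrex. It hands short, unstable nuclear transcripts to the RNA exosome for decay. Among them are PROMPTs, which are promoter upstream transcripts made in the direction away from active genes, and extended precursors of small nuclear and small nucleolar RNAs. When NEXT is lost these RNAs accumulate, and their level is compared between the clones here. How strongly decay was impaired in each clone was not measured. A PROMPT region is here the region that the deposited table lists for a gene. How far upstream it reaches, and which strand was counted, were not given in the sources used here.

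The sequences at the starts of 4 protein-coding genes are shown because their PROMPT regions were those named as highest or lowest in clone 1, or as highest or lowest where the gene itself was not called, that had an entry in RefSeq's promoter table for GRCm38.p6. Ppef2 came in by the second way, and regions of other genes differed by more. Each runs 5′ to 3′ along the gene's strand, from 250 bases before the annotated start to 50 bases after it. Capitals mark the letters AATAAA (the polyadenylation signal) or TATAAA (the core of the TATA box), or either of them read on the other strand, where the first of them appears as TTTATT. The letters of a strong 5′ splice site, GGTAAG, were also searched on both strands and were in none of the 4. Eapp and Alyref2 had more PROMPT counts in clone 1, and Ripply1 and Ppef2 had more in clone 2.
Eapp, chr12:54695845-54696144, minus strand: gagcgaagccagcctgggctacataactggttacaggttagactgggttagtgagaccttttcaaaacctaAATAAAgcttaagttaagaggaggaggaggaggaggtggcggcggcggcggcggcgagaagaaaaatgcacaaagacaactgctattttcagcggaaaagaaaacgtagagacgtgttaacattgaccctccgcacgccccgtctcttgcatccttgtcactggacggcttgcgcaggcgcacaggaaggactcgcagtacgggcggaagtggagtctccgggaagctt
Alyref2, chr1:171503228-171503527, plus strand: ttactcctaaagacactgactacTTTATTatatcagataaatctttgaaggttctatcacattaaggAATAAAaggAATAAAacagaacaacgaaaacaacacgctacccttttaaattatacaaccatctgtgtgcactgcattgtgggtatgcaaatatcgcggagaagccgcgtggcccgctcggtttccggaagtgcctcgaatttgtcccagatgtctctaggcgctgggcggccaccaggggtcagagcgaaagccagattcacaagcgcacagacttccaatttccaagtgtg
Ripply1, chrX:139782304-139782603, minus strand: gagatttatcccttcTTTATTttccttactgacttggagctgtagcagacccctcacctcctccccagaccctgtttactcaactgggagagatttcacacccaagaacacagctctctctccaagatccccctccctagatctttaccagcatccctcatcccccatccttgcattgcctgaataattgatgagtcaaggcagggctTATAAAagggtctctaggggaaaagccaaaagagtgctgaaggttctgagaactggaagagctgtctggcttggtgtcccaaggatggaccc
Ppef2, chr5:92256229-92256528, minus strand: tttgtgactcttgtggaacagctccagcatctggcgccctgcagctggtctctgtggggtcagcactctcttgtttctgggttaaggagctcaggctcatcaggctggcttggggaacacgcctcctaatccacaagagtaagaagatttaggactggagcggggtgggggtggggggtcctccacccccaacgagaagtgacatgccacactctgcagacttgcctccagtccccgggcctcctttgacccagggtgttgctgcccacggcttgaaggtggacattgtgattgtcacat
Of 32851 promoters of this length, 19.6% held AATAAA on either strand, 13.6% held TATAAA and 9.67% held GGTAAG. Ripply1 was the one of the 4 with TATAAA and had no CG pair, whereas Eapp had 20, Alyref2 14 and Ppef2 6, beside a median of 7 over all promoters. A match to these letters describes the sequence and is not a mapped site.

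The depth of the libraries differed between the clones. Clone 1 libraries held 6833258 to 7683444 counts in genes, as did clone 2 replicate 1 with 7053304, while the other clone 2 libraries held 13703634 to 16994115. Clone 1 replicate 4 and clone 2 replicate 3 had the most detected features of their clones, with 19805 and 20889 genes. SIMS cells are an epithelial line, and the ductal markers summed to 3062 to 3622 CPM (counts scaled for the size of the library) in clone 1 and 3521 to 3944 in clone 2. Of these 10 markers, 2 were higher and 4 lower in clone 1 at an edgeR adjusted p under 0.05. Over all genes tested the shares were 13.7% higher and 15.4% lower. Of 12 acinar markers 6, the secretory genes Lpo, Smgc, Dcpp1, Bpifa2, Pip and Muc19, were at 0 in all 8 libraries. The list summed to 254.4 to 275.3 CPM in clone 1 and 201.5 to 218.3 in clone 2, most of it from the water channel gene Aqp5, at 148 against 139 CPM, and from Prom2, at 112 against 69.7. Endothelial markers summed to at most 1.548 CPM in any of the 8 libraries, and the fibroblast markers Pdgfrb, Lum and Thy1 were at 0. Col1a1, another on the fibroblast list, was at 10.8 CPM in clone 1 and 24.6 in clone 2.

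Zcchc8 itself was transcribed in both clones, and at different levels. Its gene (ENSMUSG00000029427.11, GRCm38 chr5:123698294-123721100, minus strand) was at 66.1, 60.5, 60.6 and 55.9 CPM in clone 1 and at 25.2, 22.1, 24.2 and 22.8 CPM in clone 2. Wild-type libraries lay between 61.4 and 67.7 CPM, so clone 1 was near wild type and clone 2 below it without overlap. The log2 difference, always given as clone 1 minus clone 2, was 1.37 ± 0.083 (SE, n = 4 against 4; edgeR adjusted p = 2.27e-16). Against wild type it was -0.10 in clone 1 (edgeR adjusted p = 0.374) and -1.47 in clone 2 (edgeR adjusted p = 3.69e-17). Reads outside an edited stretch can remain after an edit, so this RNA level is no check of the knockout. Mtrex, the helicase of the complex, was at 107, 106, 113 and 107 CPM in clone 1 and at 141, 136, 132 and 145 CPM in clone 2. It was lower in clone 1 by a log2 difference of -0.35 ± 0.054 (SE; edgeR adjusted p = 2.11e-06), beside 149 ± 7.76 CPM in wild type (SD, n = 3). Mtrex lies on chromosome 13, where most tested genes were lower in clone 1. Rbm7 had a log2 difference of 0.15 (edgeR adjusted p = 0.144; 0.21 and called at equal depth), and Btbd7, the gene of the negative control, -0.10 (edgeR adjusted p = 0.161).

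PROMPT RNA was more abundant in clone 1 than in clone 2, and both clones were far above wild type. Of 17655 PROMPT regions tested, 1016 were higher in clone 1, which is 5.75%, and 450 were lower, which is 2.55%. A region counted as called at a Benjamini-Hochberg adjusted p under 0.05 in edgeR, with library sizes taken from the gene table. The median log2 difference over all regions was 0.09, and 58% of regions had a positive difference. Against wild type the median was 0.50 in clone 1, with 6945 regions higher (39.3%), and 0.44 in clone 2, with 6354 higher (36%); these 2 comparisons share the wild-type libraries. Scaling within the PROMPT table, which centres a general change of that table, shifted the median to -0.03 and the counts to 602 higher and 816 lower, so the direction over all regions holds relative to the genes. Without clone 1 replicate 4 and clone 2 replicate 3, an alternative chosen after seeing the data, 633 regions were higher and 282 lower.

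The median difference was larger where no other annotated gene lay within 5 kb upstream. In these 4284 regions 284 were higher in clone 1 (6.63%) and 34 lower (0.79%), with a median log2 difference of 0.28 and 69.6% positive. The same regions were above wild type by a median of 2.38 in clone 1 and 2.11 in clone 2. In the 13312 regions with another gene upstream the median was 0.04, with 727 higher and 412 lower, and 59 regions could not be placed. Under scaling within the PROMPT table the regions without a neighbour kept a positive median of 0.17, with 189 higher and 50 lower. Without the 2 libraries named above, 151 of them were higher and 18 lower.

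**Figure D1:**
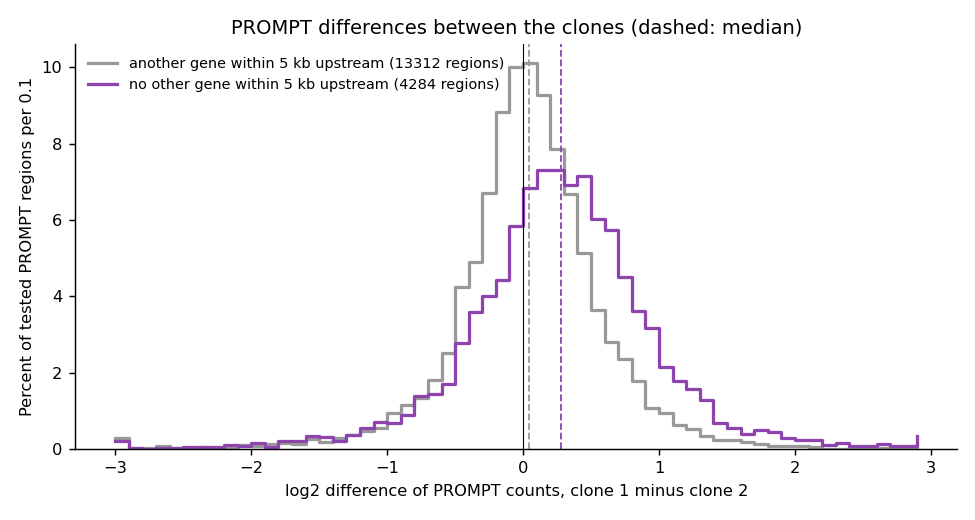
Distribution of the log2 difference, clone 1 minus clone 2, over PROMPT regions with and without another annotated gene within 5 kb upstream, as the share of regions per step of 0.1, with values beyond the axis put in the end steps and dashed lines at the medians. Regions without an upstream gene centre on 0.28 and those with one on 0.04.

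The PROMPT difference was set beside the level and the direction of the gene itself. Among regions without a neighbour whose gene was over 100 CPM, 104 of 1065 were higher in clone 1 (9.77%) and 4 lower, with a median of 0.30. For genes of 10 to 100 CPM 98 of 1742 were higher (5.63%) and 6 lower, with a median of 0.32. For genes of 1 to 10 CPM 26 of 550 were higher (4.73%) and 10 lower, and for genes under 1 CPM 56 of 927 were higher (6.04%) and 14 lower, with medians of 0.22 and 0.18. The share called higher thus did not follow the level in order. Where the gene was called higher in clone 1, 115 of 698 regions were higher and 0 lower, with a median of 0.58. Where the gene was not called, 115 of 2185 were higher and 5 lower, with a median of 0.27. Where the gene was called lower in clone 1, 16 of 659 regions were higher and 18 lower, and the median was 0.03. In each of these 3 classes the gene's own call is given, and the PROMPT counts are a separate measurement.

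Within each library the PROMPT counts were also compared with the counts of their own genes, which does not depend on library scaling. The median log2 ratio of PROMPT to gene over 11543 pairs was -2.13, -2.10, -2.14 and -2.08 in clone 1 and -2.30, -2.30, -2.32 and -2.32 in clone 2. The libraries of the clones did not overlap, and wild type stood at -3.28 ± 0.0207 (SD, n = 3). The difference between the clones was 0.20 (two-sided exact permutation test, p = 0.0286, the smallest that 4 against 4 libraries can give; adjusted p = 0.0393 over 11 library measures). It was 0.32 over the 3542 pairs without an upstream neighbour, and positive on 20 of 20 chromosomes when the ratio was fitted per pair, from 0.11 to 0.24. Clone 3 lay between the clones at -2.24 ± 0.0477 (SD, n = 4), with its lowest library at -2.30, within the range of clone 2.

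Counts in PROMPT regions without a neighbour made up 20.01, 19.66, 19.30 and 20.57 per 1000 gene counts in the clone 1 libraries and 16.56, 16.35, 16.47 and 16.32 in clone 2. That is 1.21-fold more in clone 1, beside 6.27 ± 0.0682 in wild type (SD, n = 3) and 17.0 ± 0.495 in clone 3 (SD, n = 4). Over all PROMPT regions the totals were closer, at 239 ± 1.94 in clone 1, 226 ± 5.53 in clone 2 (SD, n = 4 each) and 192 ± 4.31 per 1000 in wild type. Both differences between the clones were past the spread of the libraries (exact permutation p = 0.0286 each). Mitochondrial genes also took more counts in clone 1, 56.5 ± 1.04 against 51.5 ± 3.88 per 1000 (SD, n = 4 each), with clone 2 replicate 3 lowest at 45.7. The part of RNA quality or of mitochondrial share in the PROMPT difference was not tested.

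**Figure D2:**
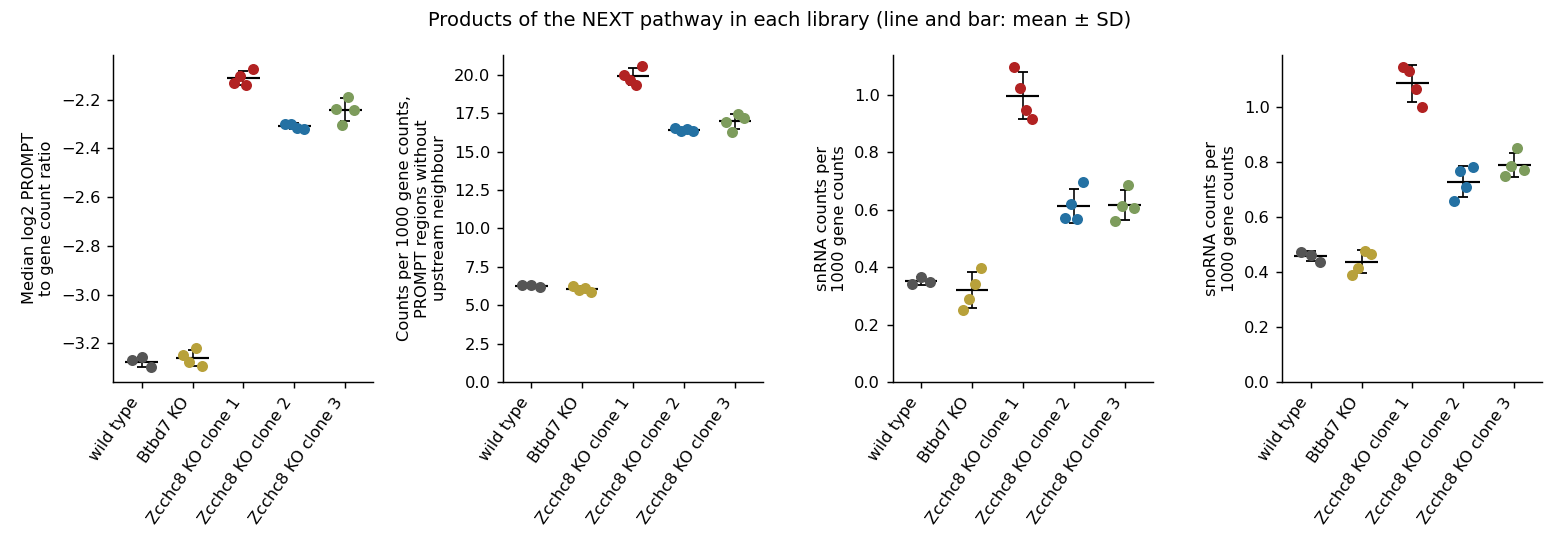
Per-library values of all 5 groups, for the median log2 PROMPT to gene ratio, and of counts per 1000 gene counts in PROMPT regions without an upstream neighbour, in snRNA genes and in snoRNA genes, with points for libraries and bars for mean ± SD. In each panel all 4 clone 1 libraries lie above all 4 clone 2 libraries, and wild type and Btbd7 KO lie below both.

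Fitted pair by pair, the ratio of PROMPT to gene was higher in clone 1 for 125 of 11543 pairs (1.08%) and lower for 19 (0.165%), with a median log2 difference of 0.16. Between clone 1 and clone 3 the counts were 13 (0.113%) and 10 (0.0866%), and between clone 2 and clone 3 they were 7 (0.0606%) and 11 (0.0953%). The median log2 difference of the ratio was 0.135 for clone 1 minus clone 3 and -0.02 for clone 2 minus clone 3. These 3 comparisons share libraries, and their difference was not tested. The count of pairs is small and depends on the libraries: leaving out 1 library at a time gave 37 to 59 higher and 3 to 7 lower, and limma on the log2 ratios called 15 and 2.

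Of the PROMPT regions of protein-coding genes named as highest, that of Eapp had the largest difference. Eapp encodes a nuclear protein bound by E2F factors. Its PROMPT region was at 95.6, 95.3, 99.6 and 96.0 CPM in clone 1 and at 24.2, 21.3, 21 and 24.3 CPM in clone 2, beside 10.4 ± 1.66 in wild type (SD, n = 3). The clones did not overlap, and the log2 difference was 2.09 ± 0.112 (SE; edgeR adjusted p = 2.14e-23), while the gene itself differed by -0.12 and was not called. The PROMPT to gene ratio differed by 2.21 ± 0.207 (SE; edgeR adjusted p = 7.36e-07). An snRNA gene, Gm22513, starts 885 bases upstream on the other strand, and it was at 12.3 ± 0.949 CPM in clone 1, against 4.41 ± 0.165 CPM for clone 2 (SD, n = 4 each; log2 1.49). Whether the region holds reads of that RNA cannot be told from the counts. The promoter printed above is rich in CG and holds 1 AATAAA.

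Alyref2, a relative of the mRNA export adaptor Alyref, had the next largest difference. Its PROMPT region was at 161, 159, 171 and 141 CPM in clone 1 and at 40.9, 42.2, 35.4 and 44.8 CPM in clone 2, beside 13.8 ± 1.53 in wild type (SD, n = 3). No library of clone 1 came near those of clone 2, and the log2 difference was 1.95 ± 0.115 (SE; edgeR adjusted p = 3.45e-21). The region overlaps the antisense gene B930036N10Rik, which was at 123, 127, 143 and 113 CPM in clone 1 and at 25.9, 27.6, 25.2 and 27.4 CPM in clone 2. Its log2 difference was 2.25 ± 0.095 (SE; edgeR adjusted p = 1.78e-21), beside 8.26 CPM in wild type, and counts of this antisense gene and of the PROMPT cannot be told apart. Other regions named as highest belonged to pseudogenes and small RNA genes. Gm6366 was at 11.4 against 2.36 CPM (log2 2.31), Mrgprb9-ps at 13.6 against 3.16 (2.08), Gm22614 at 20.2 against 5.02 (2.00), Gm8079 at 21.3 against 5.43 (1.97) and the unclassified Gm37752 at 11 against 3.12 (1.82).

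Most regions named as lowest in clone 1 belonged to, or lay inside or beside, a gene that was itself lower there. Ripply1, a transcriptional repressor of segmentation known from the early embryo, has no upstream neighbour. Its PROMPT region was at 3.02, 3.54, 3.50 and 4.39 CPM in clone 1 and at 30.6, 30.7, 25.3 and 26.9 CPM in clone 2, beside 7.67 in wild type and 7.47 in clone 3. Clone 2 thus stood above every other group, and the log2 difference was -2.97 ± 0.178 (SE; edgeR adjusted p = 6.41e-21). The gene differed by -3.31 and the ratio by 0.35 (edgeR adjusted p = 0.704). Gm27820 lies within Hhip, which encodes a hedgehog binding protein: the region was at 11.1 against 87.1 CPM and Hhip at 30.7 against 234. Gm30270, at 0.678 against 7.42 CPM, overlaps the start of Tspan12, at 4.21 against 38.5. Gm26378, at 72.0 against 159 CPM, starts 896 bases from the end of Tslp, a cytokine gene at 73.7 against 171. The regions of Gm4813 (5.92 against 55.6 CPM), Gm14407 (1.84 against 12.8) and Foxl1 (3.54 against 24.5) were also lower in clone 1 than in clone 2. For Gm14407, Foxl1 and Gm26378 the clone 1 libraries overlapped wild type and clone 2 lay above it. For Gm4813 and Gm27820 clone 1 lay below wild type and clone 2 above. For Gm30270 clone 1 lay below wild type and clone 2 overlapped it. Ppef2, a phosphatase gene known from photoreceptors, had its region at 8.13, 7.34, 5.55 and 6.97 CPM in clone 1 and at 18.6, 12.7, 15.4 and 14.3 CPM in clone 2 (log2 -1.11 ± 0.183, SE; edgeR adjusted p = 1.14e-05). Naaa ends 1381 bases upstream of Ppef2 on the same strand. It was also lower in clone 1, by a log2 difference of -0.84 (edgeR adjusted p = 1.94e-06). Whether reads of Naaa fill the Ppef2 region was not tested.

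Myo7a, an unconventional myosin known from hair cells, had the lowest ratio in clone 1 relative to clone 2. The gene was at 41.6, 49.6, 52.7 and 46.8 CPM in clone 1 and at 7.34, 8.63, 10.1 and 9.75 CPM in clone 2, with wild type at 13.3 and clone 3 at 20.5. Its PROMPT region moved the other way, at 61.5 ± 2.81 against 78.4 ± 1.17 CPM (SD, n = 4 each). The gene was higher in clone 1 by 2.39 and the region lower by 0.35 on the log2 scale, so the ratio differed by -2.75 ± 0.203 (SE; edgeR adjusted p = 1.05e-08). Capn5 ends 2035 bases upstream on the same strand and was lower in clone 1 by a log2 difference of -0.21, and whether its reads fill the region was not tested. The other named ratios, 6430550D23Rik (2.50) and Atg10 (2.11) upward and Bcap31 (-0.84) and Pik3c3 (-0.73) downward, had edgeR adjusted p between 0.0271 and 0.0445 and lost the call without one or another of several libraries and under limma. The Atg10 PROMPT region itself was at 8.79 against 4.93 CPM (log2 0.81), a call also lost without any of 5 libraries: clone 1 replicates 1, 2 and 4 and clone 2 replicates 1 and 2.

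Regions free of an upstream neighbour were called higher in clone 1 more often than lower. Of the protein-coding genes with such a region, a mean of at least 50 counts, a call and no overlap between the clones, 132 were higher in clone 1 and 7 lower, 139 in all. Without the rules on counts and overlap, 221 of the 3308 tested regions of these genes were called higher (6.68%) and 24 lower (0.73%). Over all PROMPT regions tested, 10% had every clone 1 library above every clone 2 library, and 4.73% the reverse. Cldn4, a tight junction claudin, had its PROMPT region at 22.5 ± 3.76 CPM in clone 1, 7.19 ± 1.02 in clone 2 (SD, n = 4 each) and 1.01 ± 0.287 in wild type (SD, n = 3). The region differed by 1.64 on the log2 scale, the gene by 0.48 and the ratio by 1.17 (edgeR adjusted p = 0.00473; call lost under limma). Prrg4, a vitamin K-dependent membrane protein, had its region at 25.9 against 8.23 CPM, beside 1.64 in wild type, with a log2 difference of 1.64. Fam71f1 (9.9 against 2.83 CPM), Dynap (9.4 against 2.69) and Ccdc68 (26.7 against 9.45) completed the 5 largest positive differences. Each of their genes was higher in clone 1 too. Wild type was at 1.03, 4.85 and 2.41 CPM in that order. For Dynap the clone 1 libraries overlapped wild type and clone 2 lay below it. The PROMPT to gene ratio of Prrg4 differed by 0.77 (edgeR adjusted p = 0.0442), a call lost under 8 of 10 alternatives. The ratios of Fam71f1 (0.14), Dynap (0.53) and Ccdc68 (0.52) were not called. Dynap and Ccdc68 lie on chromosome 18 past 40 Mb and Prrg4 on chromosome 2, where most tested genes had a positive difference. Among the 7 lower regions, Cldn2, another claudin, was at 3.84 against 9.51 CPM (log2 -1.31). Cldn2 and Ripply1, also among the 7, lie on chromosome X between 120 and 140 Mb, where 20 of 32 tested genes were lower. Others of the 7 lie on chromosome 11 between 80 and 100 Mb, where 131 of 217 were lower. These regions were named after their values were seen.

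Small nuclear and small nucleolar RNA genes were higher in clone 1 in every case that was called. The percentages called over all 15547 genes tested were 13.7% higher and 15.4% lower in clone 1. Of 68 snRNA genes 21 were higher and 0 lower, with a median log2 difference over all 68 of 0.40. Of 127 snoRNA genes 23 were higher and 0 lower, with a median of 0.29. As shares of the libraries, snRNA genes took 1.10, 1.03, 0.947 and 0.916 per 1000 gene counts in clone 1 and 0.571, 0.618, 0.569 and 0.697 in clone 2, beside 0.352 in wild type and 0.617 in clone 3. For snoRNA genes the values were 1.15, 1.13, 1.07 and 1.00 in clone 1 and 0.658, 0.767, 0.711 and 0.783 in clone 2, beside 0.458 in wild type. Neither class overlapped between the clones, with 1.62-fold and 1.49-fold more in clone 1 (exact permutation p = 0.0286 each). The called snRNA genes stood above wild type by a median log2 of 2.82 in clone 1 and 1.37 in clone 2, and the called snoRNA genes by 1.89 and 0.58. In a second gene table, which adds wild-type replicate 1 and so has 20 libraries, 16 snRNA and 12 snoRNA genes were higher.

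Gm22265, a predicted snRNA gene, was at 34.2, 37.7, 33.4 and 37.3 CPM in clone 1 and at 8.45, 8.13, 7.76 and 9.26 CPM in clone 2, beside 3.65 in wild type and 14.4 in clone 3 (log2 2.09). Spliceosomal RNA genes were among the called members. Rnu5g, a U5 gene, was at 13.6, 12.8, 12.4 and 15.0 CPM in clone 1 and at 5.40, 3.96, 3.36 and 6.82 CPM in clone 2, beside 1.02 in wild type (log2 1.47 ± 0.234, SE; edgeR adjusted p = 3.32e-06). Rnu2-10, a U2 gene, had a log2 difference of 0.93, a call lost in the table with 20 libraries, and Rnu11 one of 0.41, lost without clone 2 replicate 1. The U1 gene Rnu1a1 was at 42.5 against 26.2 CPM with overlapping libraries (log2 0.73; edgeR adjusted p = 0.00132). Near-identical copies of these genes make the assignment of reads uncertain.

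Among snoRNAs, Snora31, which guides pseudouridylation of ribosomal RNA, was at 161, 155, 149 and 118 CPM in clone 1 and at 43.2, 61.9, 43.8 and 67.3 CPM in clone 2. Wild type was at 12.8 and clone 3 at 57.6, so clone 1 alone stood apart from the other KO clones (log2 1.42 ± 0.114, SE; edgeR adjusted p = 5.7e-13). Snord118, the U8 RNA of ribosomal RNA processing, was at 148, 147, 123 and 128 CPM in clone 1 and at 59.7, 62.0, 62.6 and 65.1 CPM in clone 2, beside 19.2 in wild type (log2 1.13; edgeR adjusted p = 6.76e-13). Snord13, which has its own promoter, was at 24.5 against 12.3 CPM (log2 0.97). In bulk libraries, fewer cells with a transcript and less of it per cell cannot be told apart.

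Long non-coding classes showed smaller fold differences in their share of the counts. Transcripts annotated as lncRNA from bidirectional promoters took 0.942 against 0.824 per 1000 gene counts, 1.14-fold more in clone 1, without overlap of the libraries. Gene by gene 13 of 106 were higher (12.3%) and 3 lower, with a median log2 of 0.23, a share higher near the 13.7% over all genes tested. Antisense genes took 1.11-fold more, also without overlap, but 36 of 484 were higher (7.4%) and 16 lower (3.3%), both below the shares over all genes. The share of lincRNA genes, 42.3 ± 1.98 against 39.2 ± 4.09 per 1000 (SD, n = 4 each), was not past the spread of the libraries (exact permutation p = 0.257). The unclassified TEC genes were at 4.16 against 4.14 per 1000 (exact permutation p = 0.943).

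Many genes differed between the clones as well. Of 15547 genes tested, 2128 were higher in clone 1 and 2397 lower, together 29.1%. Clone 1 against clone 3 gave 3191 called genes (20.5%), and clone 2 against clone 3 gave 3829 (24.6%). Of the genes called between clones 1 and 2, 251 were higher and 432 lower by more than 1 on the log2 scale. Leaving out 1 library at a time gave 1886 to 1983 higher and 2137 to 2275 lower.

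The basement membrane collagen Col4a3 had the largest log2 difference among the genes named as higher in clone 1, and its neighbour Col4a4 was high in the same libraries. Col4a3 (chr1:82586921-82722059, plus strand) was at 68.6, 68.3, 64.0 and 59.5 CPM in clone 1 and at 1.94, 2.01, 4.46 and 2.02 CPM in clone 2, beside 57.1 in wild type and 105 in clone 3. Clone 2 was thus the one Zcchc8 KO clone in which the gene was nearly off (log2 4.54 ± 0.133, SE; edgeR adjusted p = 1.03e-26). Col4a4 (chr1:82448423-82586849, minus strand) was at 53.4, 53.3, 45.9 and 48.4 CPM in clone 1 and at 6.51, 5.47, 4.46 and 6.20 CPM in clone 2, beside 54.4 in wild type (log2 3.18 ± 0.101, SE; edgeR adjusted p = 1.27e-25). The 2 genes are a head-to-head pair whose starts lie 72 bases apart. The sequence at the Col4a4 start is shown because it spans both starts: capitals mark the 73 bases from the annotated Col4a3 start to the Col4a4 start, printed along the Col4a4 strand.
Col4a4, chr1:82586800-82587099, minus strand: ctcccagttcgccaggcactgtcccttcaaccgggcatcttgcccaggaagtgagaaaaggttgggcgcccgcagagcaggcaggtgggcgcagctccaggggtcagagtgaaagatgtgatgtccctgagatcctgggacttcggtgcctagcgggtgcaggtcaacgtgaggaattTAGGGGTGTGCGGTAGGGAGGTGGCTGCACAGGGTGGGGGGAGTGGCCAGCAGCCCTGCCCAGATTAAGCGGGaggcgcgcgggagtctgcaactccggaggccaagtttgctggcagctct
Both genes of the pair were low in the same 4 libraries. The other chains differed less: Col4a1 was at 390 against 247 CPM (log2 0.66), its partner Col4a2 at 291 against 184 (0.66), and Col4a5 was lower in clone 1 at 39.6 against 67.6 (-0.77).

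Other genes higher in clone 1 had varied roles. Tfpi, an inhibitor of the coagulation pathway started by tissue factor, was at 14.6 to 21.5 CPM in the clone 1 libraries and at 1.52, 1.15, 1.39 and 0.975 CPM in clone 2. Wild type was at 6.56 and clone 3 at 1.42, so here clone 1 was the line that stood apart (log2 3.95 ± 0.237, SE; edgeR adjusted p = 1.9e-16). Foxj1, the transcription factor of motile cilia, was at 24.0, 25.3, 14.3 and 13.5 CPM in clone 1 and at 3.74, 4.46, 5.68 and 3.48 CPM in clone 2 (log2 2.12), beside 10.4 in wild type. Npr3, the clearance receptor for natriuretic peptides, was at 29.6 ± 3.08 against 6.55 ± 1.44 CPM (SD, n = 4 each; log2 2.18). Pglyrp3, a peptidoglycan recognition protein, was at 11.7 against 1.65 CPM (log2 2.77), and Tmem238l at 12.4 against 1.40 (log2 3.18).

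At the other end stood genes that were at or near 0 in clone 1 libraries. Rgl3, which encodes an exchange factor for Ral, had no count in any clone 1 library and was at 11.6, 13.1, 10.1 and 9.47 CPM in clone 2. Against a floor of 3 counts per library it was at least 27.3-fold lower in clone 1, beside 6.73 CPM in wild type and 12.6 in clone 3. Ehf, an Ets factor of glandular epithelium, was at 0.262, 1.09, 0.292 and 0.387 CPM in clone 1 and at 18.7, 19.2, 23.1 and 16.7 CPM in clone 2, beside 2.33 in wild type (log2 -5.23). Trp63, the transcription factor that defines basal epithelial cells, was low in clone 1 and in wild type alike, at 0.918, 0.408, 1.90 and 2.71 CPM in clone 1 with overlap of the wild-type libraries, whose mean was 2.78. In clone 2 it was at 23.1, 20.5, 20.6 and 19.6 CPM, and clone 3 was at 3.99, so clone 2 was the line above the rest (log2 -3.80 ± 0.293, SE; edgeR adjusted p = 1.97e-13).

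The remaining genes named as lowest had means under 1 CPM in clone 1. Prex1, an exchange factor for Rac, was at 0.885 against 25 CPM, beside 3.95 in wild type. Gli3, a transcription factor of hedgehog signalling, was at 0.314 against 7.94, and Edil3, a secreted integrin ligand, at 0.204 against 7.81. Zbtb7c was at 0.302 against 12, Gxylt2, a xylosyltransferase, at 0.274 against 7.98, and the phosphatase-targeting protein gene Ppp1r9a at 0.503 against 11.7. Their fitted log2 differences ran from -5.26 to -4.52. In all of the genes named as lowest, the 4 clone 1 libraries lay below the 4 clone 2 libraries, as the rule for naming them required.

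**Figure D3:**
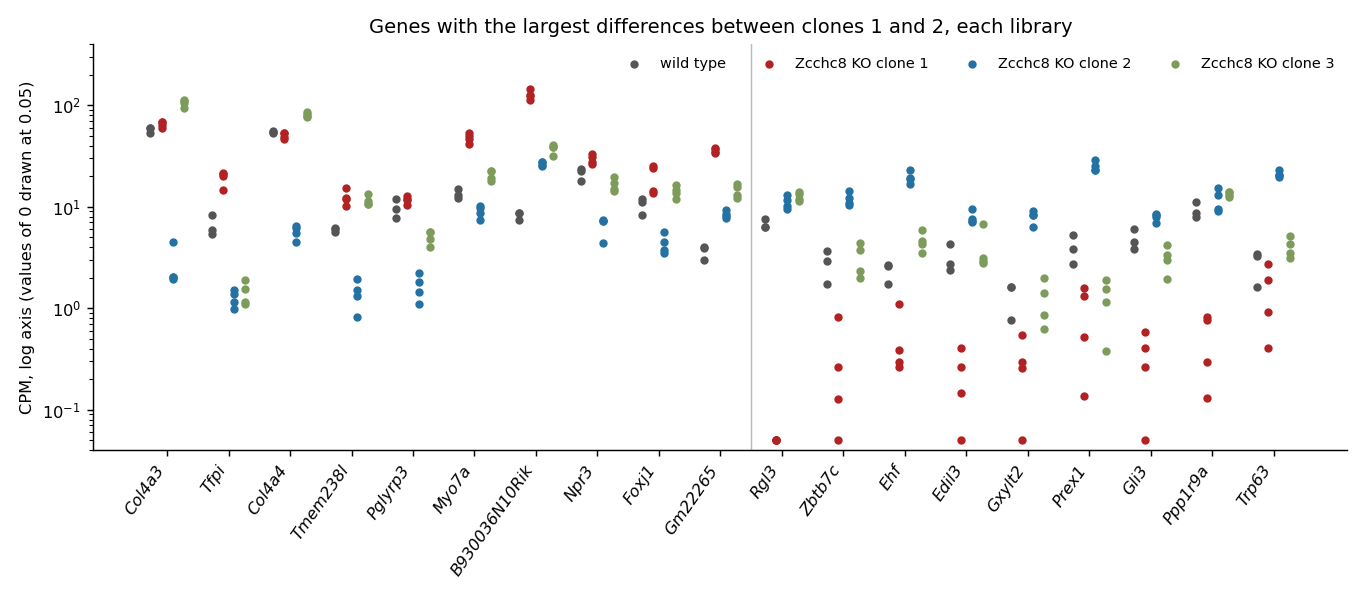
Level of the named genes in CPM on a log axis, with a value of 0 drawn at 0.05, for libraries of wild type and of Zcchc8 KO clones 1, 2 and 3. Col4a3 and Col4a4 are low in clone 2 alone, and Rgl3 is at 0 in clone 1 alone.

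On 5 chromosomes the median over the genes differed between the clones by more than on the others, and the gene lists below are given with the place of their members on them. The median log2 level over the genes of chromosome 2 was higher in clone 1 by 0.33, with 83.1% of differences positive and 580 of 1138 tested genes higher against 36 lower. On chromosome 18 the difference was 0.20, with 137 of 392 genes higher and 23 lower. Chromosome 13 was lower in clone 1 by -0.31, with 310 of 695 genes lower and 22 higher, chromosome 19 by -0.22, with 209 of 514 lower and 14 higher, and chromosome 11 by -0.12, with 325 of 1149 lower and 101 higher. The libraries of the clones did not overlap on these 5, nor on chromosomes X, 5, 15 and 9, where differences ran from -0.07 to -0.03. With 20 chromosomes tested the adjusted p was 0.0636 for each of these 9 (exact permutation test), which misses the threshold, and 4 against 4 libraries cannot give less than 0.0286 before adjustment. Without TMM factors it was 0.0476 for each of the 9, which passes, so the call depends on the scaling. With each p at 0.0286, the adjusted value falls only as more chromosomes lack overlap. This pass therefore adds no evidence for the 9.

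Against wild type, chromosome 2 was 0.30 in clone 1 and -0.04 in clone 2, and chromosome 18 was -0.02 and -0.16. Chromosome 13 was -0.19 in clone 1 and 0.12 in clone 2, and chromosome 19 was -0.07 and 0.17. In steps of 20 Mb, 29 of 138 segments differed by at least 0.15, all without overlap of the libraries, while the other 109 lay between -0.15 and 0.13. All segments of chromosomes 2, 13 and 19 were among the 29, but only the part of chromosome 18 past 40 Mb (0.30 to 0.53), the part of chromosome 11 from 80 to 120 Mb (-0.39 and -0.19) and the part of chromosome X from 120 to 160 Mb (-0.48 and -0.47). The other segments of the 29 were chromosome 12 from 60 to 100 Mb (0.23 and 0.15) and chromosome 5 from 80 to 100 Mb (-0.17). The 5 chromosomes held 1757 of the 4525 called genes, and 45.2% of the genes tested there were called, against 23.7% elsewhere. Differences over 1 on the log2 scale were closer in frequency, with 5.25% of tested genes there and 4.11% elsewhere. DNA copy number was not measured in these data and its part in the shifts was not tested.

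**Figure D4:**
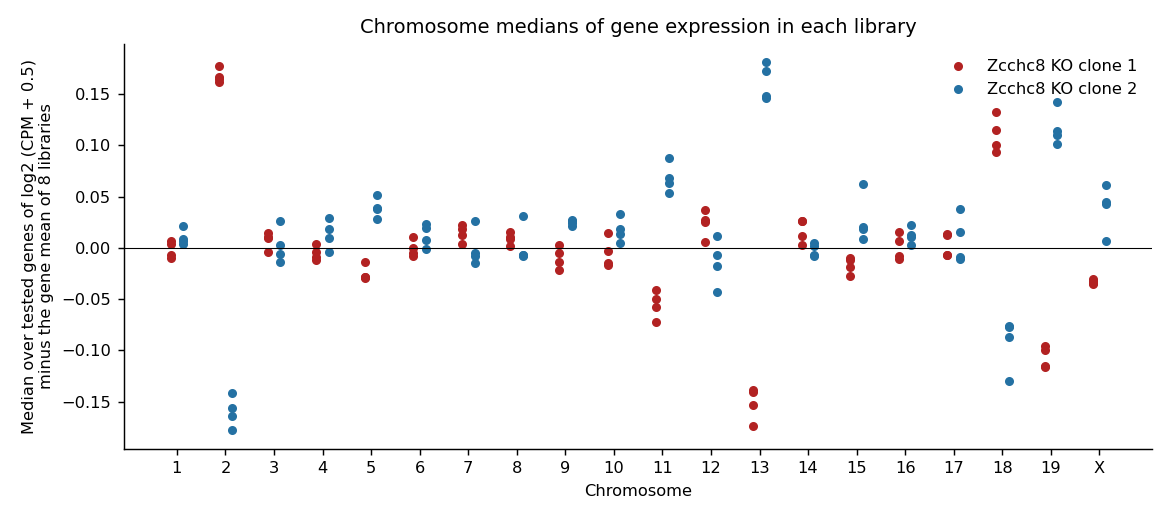
Median over the genes of each chromosome of the log2 level minus the gene's mean over the 8 libraries, with a point for each library of clone 1 and clone 2. Chromosomes 2 and 18 are higher in clone 1, by 0.33 and 0.20, and chromosomes 13, 19 and 11 are lower, by -0.31, -0.22 and -0.12.

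The counts in the lists that follow stand beside the 13.7% of all genes tested that were called higher in clone 1 and the 15.4% called lower. The decay machinery around NEXT had few called members. Of 13 exosome genes 2 were higher in clone 1 (15.4%) and 0 lower, with a median of 0.02: Exosc2, a cap subunit on chromosome 2, at 34.8 against 22.1 CPM (log2 0.66), and the cytoplasmic nuclease gene Dis3l at 30.9 against 23.6 (0.39). Of 15 genes of PAXT, the nuclear adaptor for polyadenylated RNA, and of the cap-binding adaptors, 4 were higher (26.7%) and 0 lower, with a median of 0.03. These were Phax, the export adaptor of snRNAs, on chromosome 18 (log2 0.61), the nuclease gene Xrn2 on chromosome 2 (0.49), the PAXT scaffold Zfc3h1 at 148 against 125 CPM (0.25) and Srrt, the cap-binding partner, at 275 against 240 (0.20). None of these was changed by more than 2-fold.

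Keratins, the intermediate filaments of epithelia, had more members lower than higher in clone 1. Of 10 tested, 5 were lower (50%) and 1 higher (10%), with a median of -0.19 beside -0.01 over all genes. Krt7 (-0.13), Krt10 (-0.16), Krt18 (0.05) and Krt80 (0.05) did not pass the test. Krt19, a ductal keratin, was at 181 ± 12.3 against 350 ± 22.8 CPM (SD, n = 4 each; log2 -0.95), with wild type at 250. Krt13 was at 7.33 against 15.2 (-1.06), Krt14, a basal keratin, at 188 against 290 (-0.62) and Krt8, of simple epithelia, at 537 against 706 (-0.40). Of the 5 lower keratins 4 lie on chromosome 11. Krt16, at 3.67 against 1.82 CPM with overlapping libraries, was the one called higher (edgeR adjusted p = 0.0495) and lost the call under 9 of 17 alternatives, among them leaving out clone 1 replicate 1 or 2 or clone 2 replicate 1 or 2. Basal markers, which include Krt14 and Trp63, summed to 273.9 to 338.0 CPM in clone 1 and 417.2 to 493.5 in clone 2, with 3 of 4 tested lower, while Cnn1 was at 0. Most of that sum came from Krt14 and from Krt17, at 115 against 134 CPM. Apart from these and Trp63 the markers were at or near 0. Among them Krt5, Acta2 and Oxtr were slightly higher in clone 1, and Krt15 and Myh11 slightly lower.

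Epithelial junction genes included called members in both directions. Of 29 tested, 10 were higher in clone 1 (34.5%) and 5 lower (17.2%), with a median of 0.08, and away from the 5 chromosomes 8 of 19 were higher and 1 lower. Cldn6 was at 197 against 111 CPM (log2 0.83), Cldn12 at 107 against 63.8 (0.75) and Cldn4 at 610 against 437 (0.48). The desmosomal plaque genes Jup, on chromosome 11 (-0.52), and Dsp, on chromosome 13 (-0.42), were lower. Of 7 tested genes of a mesenchymal state 2 were higher (28.6%) and 3 lower (42.9%).

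Matrix genes were called in both directions. Of 31 basement membrane and matrix genes 12 were higher in clone 1 (38.7%) and 10 lower (32.3%), with a median of 0.08. Beside the collagen IV chains above, Nid1, which links collagen IV to laminin, was at 3.39 against 0.303 CPM (log2 3.50), and Col18a1, the source of endostatin, was at 9.40 against 38.6 (-2.04). Of 11 integrins 4 were higher (36.4%) and 3 lower (27.3%). Itgb6, the beta chain of an epithelial receptor for latent TGF-beta, was at 80.0 against 48.6 CPM (log2 0.72) and its partner Itgav at 639 against 452 (0.50), both on chromosome 2. Itga6, of the laminin receptor, was at 189 against 261 (-0.46) though it also lies on chromosome 2, and Itga3 at 364 against 460 (-0.34).

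Ligands and receptors of growth factor pathways were lower in clone 1 for 13 of 35 (37.1%) and higher for 7 (20%), with a median of -0.01. Wnt5a, a non-canonical Wnt ligand, was at 16.1, 13.7, 13 and 14.1 CPM in clone 1 and at 43.1, 42.9, 35.7 and 40.7 CPM in clone 2, beside 31.6 in wild type (log2 -1.51). Tgfb1 was at 6.32 against 16.2 CPM (-1.36) and its receptor Tgfbr2 at 215 against 318 (-0.56). The EGF receptor ligands Areg (9.43 against 18.6 CPM), Btc (10.9 against 18) and Ereg (30.7 against 42.4) were each lower in clone 1, by log2 -0.98, -0.74 and -0.46. Jag1, a Notch ligand on chromosome 2, was at 31.7 against 15.4 CPM, beside 7.92 in wild type (log2 1.03), and Wnt7a at 12.6 against 8.29 (0.61), with overlapping libraries.

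Genes of the integrated stress response, which ATF4 switches on when amino acids are short or proteins misfold, were higher in clone 1 for 10 of 25 (40%) and lower for 0, with a median of 0.25. None of the 10 lies on the 5 chromosomes, and 7 did not overlap between the clones, as 12.7% of all genes tested did not with clone 1 above. Cth, of cysteine synthesis, was at 2.30 against 0.429 CPM (log2 2.27), the transcription factor gene Atf5 at 12.6 against 4.93 (1.27) and Gpt2, of alanine synthesis, at 39.7 against 27 (0.55). Wild type had 13.9 CPM of Atf5, so clone 2 was the lower line. Atf4 itself was at 224 against 188 CPM with overlapping libraries (log2 0.25; edgeR adjusted p = 0.0499) and lost the call under 9 of 17 alternatives. The count of 10 fell to 4 in the table with 20 libraries and to 6 without clone 1 replicate 3.

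Enzymes of cholesterol and fatty acid synthesis were higher for 11 of 31 (35.5%) and lower for 3 (9.7%), with a median of 0.14, and away from the 5 chromosomes 8 of 19 were higher and 0 lower. Msmo1, a sterol demethylase, was at 162 against 111 CPM (log2 0.54). The fatty acid enzymes Acaca (-0.35) and Acly (-0.24), both on chromosome 11, were lower. The count of 11 was 7 in the table with 20 libraries and without clone 1 replicate 2.

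Ribosomal protein genes were higher for 29 of 83 (34.9%) and lower for 4 (4.8%), with a median of 0.16, and 21 of 68 were higher and 1 lower away from the 5 chromosomes. Rpl17 (log2 0.86) and Rps14 (0.78), both on chromosome 18, led, and Rpl27, on chromosome 11 (-0.38), was lowest of those named. The higher count was 16 in the table with 20 libraries. Histone genes were lower for 25 of 65 (38.5%) and higher for 1, H2afx (log2 0.44), with a median of -0.25. Chromosome 13 carries the large histone cluster, and 22 of its 49 tested members were lower against 3 of 16 elsewhere. That is near the share over all tested genes of chromosome 13, where 310 of 695 were lower. Hist1h3d (-1.06) and Hist1h2bc (-0.83) were the lowest named, and reads of near-identical histone genes may be assigned to the wrong copy. The lower count was 16 without clone 1 replicate 4 and 10 in the table with 20 libraries.

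Of 50 cell cycle and replication genes 11 were higher (22%) and 10 lower (20%), and 7 of the 11 lie on chromosome 2. Gins1, of the replicative helicase (log2 0.78), and the mitotic kinase gene Aurka (0.58) are on chromosome 2, and the licensing factor gene Cdc6 (-0.52) and Top2a (-0.43), a topoisomerase, are on chromosome 11. Of 30 p53 targets 8 were higher (26.7%) and 5 lower (16.7%), with a median of 0.11. Cdkn1a, the cell cycle inhibitor p21, was at 23.8 against 15.1 CPM (log2 0.64), with wild type at 26.2, and Pmaip1, a pro-apoptotic gene on chromosome 18, at 88.2 against 62.9 (0.49).

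Of 23 interferon-stimulated genes 6 were lower in clone 1 (26.1%) and 1 higher (4.3%), with a median of -0.15. Ifit2 was at 0.826 against 2.63 CPM (log2 -1.62), both below the 7.38 of wild type, and B2m, the light chain of MHC class I on chromosome 2, was the one higher (0.39). Immediate early genes were higher for 7 of 24 (29.2%) and lower for 3 (12.5%), but for 3 in the table with 20 libraries and 4 without clone 1 replicate 2 or clone 2 replicate 4. Smaller lists gave 3 higher and 4 lower of 12 imprinted genes, 2 and 2 of 12 antigen presentation genes, 1 and 1 of 17 clustered protocadherins, and 4 and 0 of 12 Snhg host genes. Of 7 tested genes of the mitochondrial genome 2 were higher, but 1 without clone 2 replicate 3 and 4 without clone 2 replicate 1, and the 1 Hox gene tested was not called. Zinc finger genes named Zfp gave 34 higher (11.3%) and 44 lower (14.6%) of 302, where 14 of 28 on chromosome 13 were lower and 0 higher. Of all 695 genes tested on that chromosome, 310 were lower and 22 higher. Solute carriers gave 27 (16.6%) and 28 (17.2%) of 163, and both families were near the shares over all genes. Fibroblast markers summed to 10.2 to 14.3 CPM in clone 1 and 24.8 to 28.5 in clone 2. Most of that sum came from 1 gene, Col1a1, at 10.8 against 24.6 CPM. Col1a2 was at 0.739 against 1.49, and the other markers were at or near 0, with Col3a1 and Dcn slightly higher in clone 1. The part of these markers in the matrix and growth factor counts was not tested.

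**Figure D5:**
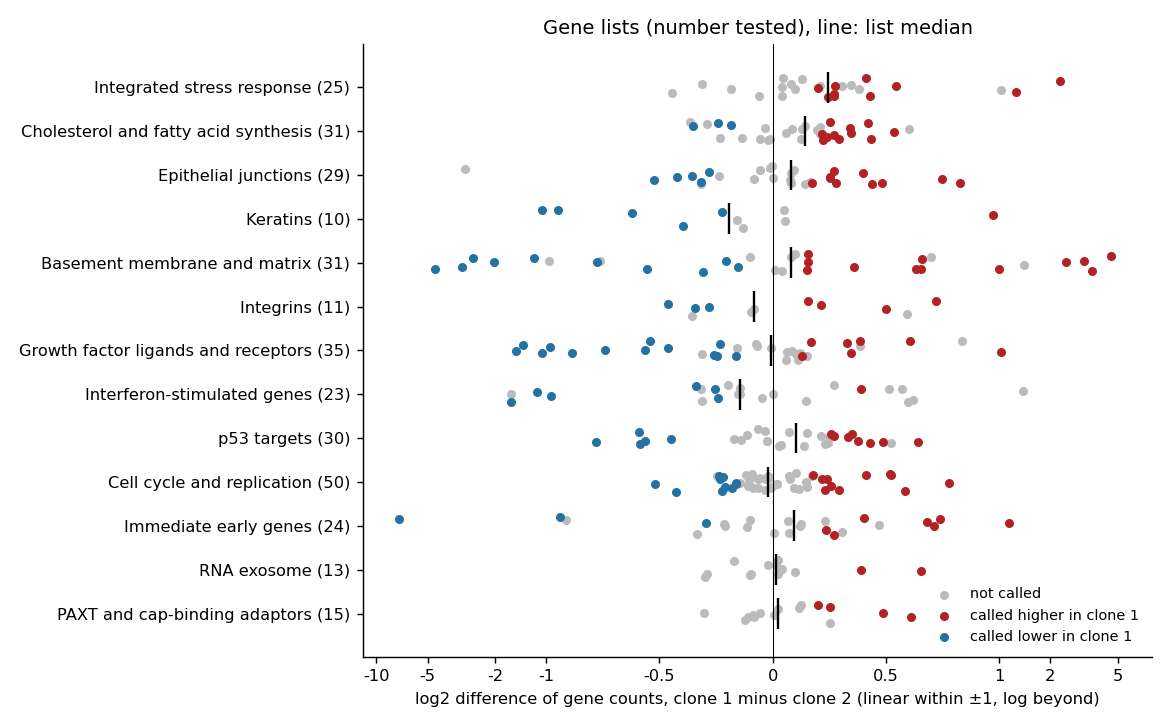
Log2 difference, clone 1 minus clone 2, for each tested member of 13 gene lists on an axis that is linear near 0 and logarithmic beyond, with grey for not called, red for higher and blue for lower in clone 1, and a bar at the median of each list. The called integrated stress response genes are all higher (10 of 25), and of 10 keratins 5 are called lower and 1 higher.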

How the data were processed

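Per the labels' protocols, SIMS cells were lysed in Trizol, and their total RNA, after a spin column, went into stranded total RNA libraries. The authors deposited raw counts, as whole numbers per gene and per PROMPT region. STAR 2.7.3a and FastQC are named in the submitters' processing notes, while the counter, build, strand setting and extent of a PROMPT region were not given in the sources used here. Columns were assigned by the labels; 0 columns lacked a library. Positions came from GENCODE M21 on GRCm38, to which 55230 of 55471 identifiers matched without version.

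The quasi-likelihood test of edgeR 4.0.16, run under R 4.3.3 with 5 groups after filterByExpr, gave the calls, with library sizes and TMM factors of the gene table for both tables. PROMPT to gene ratios were fitted on stacked counts with a term per library. CPM used the TMM-scaled gene totals, and log2 values per library added 0.5. Exact permutation tests used scipy 1.17.1. DESeq2 1.42.0, limma 3.58.1 and the alternatives below were run beside these. On simulated data the gene, PROMPT and ratio tests recovered 75%, 49% and 13.7% of 2-fold changes.

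Named genes were the 10 highest and 10 lowest called genes without overlap and with a mean of at least 50 counts; likewise 6 and 6 PROMPT regions, 3 and 3 more whose gene was not called, and 3 and 3 ratios. One of the lowest genes is not reported here. Of each list the 2 highest and 2 lowest called members were eligible, and a part of them is printed. Further genes were named after their values were seen: Gpt2, Atf4, Col4a1, Col4a2, Col4a5, Col18a1, Krt14, Krt8, Cldn4, Areg, Ereg, Btc, Tgfbr2, Zfc3h1, Srrt, the small RNAs and the neighbours of PROMPT regions. Members and lists were chosen with earlier results of these data known. Replicate numbers did not pair libraries, with correlations of same-numbered libraries from -0.047 to 0.006. Replicates of a clone differed by more than sampling noise (chi-square over its degrees of freedom, 2.89 to 8.46). Intervals of counting error were not the limit here; p-values rest on the spread between 4 and 4 libraries.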

Additional observations from a re-analysis of the deposited data

Results flagged for a closer look

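Of 272 groups of 4 libraries examined, 13 had 1 library far from the other 3 by Dixon's test, which chance alone gives in about 1 of 20 groups. In clone 1 replicate 4 the TEC genes took 4.44 per 1000 gene counts, and the chromosome 5 median was -0.014. In clone 2 replicate 3 the mitochondrial genes took 45.7 per 1000, Col4a3 was at 4.46 CPM and Krt8 at 806 CPM. In clone 1 replicate 3, Mtrex was at 113, Top2a at 1000, the Eapp PROMPT region at 99.6 and the Bcap31 PROMPT region at 9.05 CPM. Further values of this kind were Ehf at 1.09 CPM in clone 1 replicate 2, Npr3 at 4.39 in clone 2 replicate 2, Tgfbr2 at 350 in clone 2 replicate 1 and the Eapp gene at 17.9 in clone 2 replicate 4.

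Among the 90 genes and 26 PROMPT regions named in this report, 30 features had the clones on opposite sides of all wild-type libraries. Most of the named features were picked for a difference between the clones, and the share over all features tested was not counted. The contrast of the clones was tested as given in the report, and no further test of the opposite directions was made. Clone 1 was above and clone 2 below wild type for Col4a3 (log2 difference between the clones 4.54), Tfpi (3.95), Tmem238l (3.18), Myo7a (2.39), Npr3 (2.18), Foxj1 (2.12), Rpl17 (0.86), Col4a2 (0.66), Col4a1 (0.66), Aurka (0.58), Xrn2 (0.49) and the PROMPT region of Gm6366 (2.31). Clone 1 was below and clone 2 above wild type for Rgl3, whose fitted value of -10.04 rests on clone 1 libraries at 0 and depends on the prior count. The same held for Zbtb7c (-5.26), Ehf (-5.23), Edil3 (-5.20), Gxylt2 (-4.82), Prex1 (-4.81), Gli3 (-4.65), Ripply1 (-3.31) and Hhip (-2.93). Smaller differences of this direction were those of Wnt5a (-1.51), Tslp (-1.22), Hist1h3d (-1.06), Krt19 (-0.95), Itga6 (-0.46) and Dsp (-0.42). Among PROMPT regions they were those of Gm4813 (-3.23), Gm27820 (-2.98) and Ripply1 (-2.97).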

How the results depend on the processing

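Counts are given as higher and lower in clone 1. With a log2 difference over 1 also required, 251 and 432 genes, 327 and 154 PROMPT regions, and 147 higher regions without an upstream neighbour remained in the counts. Outside chromosomes 2, 11, 13, 18 and 19 they were 1274 and 1494 genes, 612 and 232 PROMPT regions, and 175 and 17 regions without a neighbour, fewer features being counted there. Without the 2 libraries with most features detected, 633 and 282 PROMPT regions were called, and 151 and 18 without a neighbour. Scaling within the PROMPT table gave 602 and 816 regions and a median of -0.028, and 189 higher regions without a neighbour; this scaling centres the table by construction. The PROMPT median was 0.11 with DESeq2 size factors and 0.0 with no filter, where 40051 regions were fitted; for these the cause was not tested. Ratio calls were 15 and 2 under limma, the cause not being tested. Leaving out 1 library at a time gave 37 to 59 higher and 3 to 7 lower ratios, 21 to 31 lower regions without a neighbour, a within-library ratio difference of 0.19 to 0.21 and a PROMPT share difference of 10.9 to 15.3 per 1000. The exact p was then 0.0571, the smallest that 3 against 4 libraries allow. The TEC difference, which was not past the spread of the libraries, ran from -0.0718 to 0.125 in these runs.

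The replicate block changed no count by over 1.5 times: in a fit of the 8 libraries it gave 1883 and 2066 genes and 1165 and 421 PROMPT regions, against 2060 and 2250, and 1352 and 511, without the block. Of 90 named genes 86 kept their call or lack of it under every alternative or gained one (Rbm7, at equal depth), and Atf4, Krt16, Rnu2-10 and Rnu11 lost it under 1 or more. Of 26 named PROMPT regions 25 kept theirs, all but Atg10, and of 8 named ratios 2, Eapp and Myo7a. These features were chosen for large differences. The lower depth of clone 1 limits calls of features with few counts.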
